A study of Homo sapiens with 23 samples.

Results

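Fibronectin and the integrin subunits that bind it were followed in 4 ovarian cancer cell lines made resistant to prexasertib, an inhibitor of the checkpoint kinase CHK1. The 10 genes were FN1, which encodes fibronectin, and the integrin genes ITGA3, ITGA4, ITGA5, ITGA8, ITGAV, ITGB1, ITGB3, ITGB6 and ITGB8. They were chosen because FN1 was higher in the resistant than in the parental cells of all 4 lines, so the FN1 differences are given as a description, with no test. Of the 10 genes, 9 were among the 21658 genes of the expression table, and ITGA8 was not analysed here.

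The RNA-seq libraries came from cultures of OV-90, Kuramochi, OVSAHO and EFO-21, each as the parental line and as its prexasertib-resistant derivative. Each resistant line was selected by stepwise increase of the drug over a long period, and each is 1 derivative of its parent, so a difference within a line belongs to that selection. Parental OV-90 had 2 libraries and each of the other 7 groups had 3, which gave 23 libraries, 11 of them parental and 12 resistant. Expression is given as the log2 value that the authors brought to 1 common distribution for all libraries, and a difference of 1 on this scale is a 2-fold change. A gene was called changed when limma's adjusted p was under 0.05 and the change was at least 2-fold. The p-values measure the spread between these libraries, which the labels name biological replicates without saying whether they were grown apart.

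Fibronectin is a large secreted glycoprotein that cells assemble into fibrils of the extracellular matrix. Integrins are receptors made of 1 alpha and 1 beta chain that grip the matrix outside the cell and link it to the actin cytoskeleton inside. In the ovary and peritoneum, fibronectin is a matrix on which tumour cells attach and spread.

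The parts of fibronectin that integrins grip are short stretches of its coding sequence, shown here because they decide which of the integrin pairs below can bind. All 3 are read from the minus strand of chromosome 2 in GRCh37, in the FN1 transcript of 46 exons and 2477 codons that the annotation marks as its principal one, and the capitals mark the codons of the binding motif.
RGD motif, exon 30, residues 1615 to 1617, chr2:216248774-216248803: gtcactggcCGTGGAGACagccccgcaagc
Synergy site, exon 28, residues 1498 to 1502, chr2:216251506-216251541: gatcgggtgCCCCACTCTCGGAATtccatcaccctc
LDV motif, exon 40, residues 2102 to 2104, chr2:216237022-216237051: ccagagatcTTGGATGTTccttccacagtt
The RGD motif is the site for alpha5 beta1, alpha8 beta1 and the alphaV integrins, and the synergy site strengthens the hold of alpha5 beta1. The LDV motif is the site for alpha4 beta1 and lies in the variable region, which splicing can leave out. The table has 1 value per gene, so inclusion of that region was not measured.

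FN1 (NCBI Gene ID 2335, chr2:216225163-216300796 in GRCh37) was higher in every resistant library than in any parental library of its own line. In OV-90 the parental libraries stood at 11.96 and 13.50 and the resistant libraries at 14.48, 14.29 and 14.75, a difference in means of 1.78. In Kuramochi the parental values of 12.53, 11.74 and 11.70 stood against resistant values of 15.02, 14.97 and 14.33, a difference of 2.78. The gain was thus largest, in mean, in Kuramochi, in which the resistant cells held 6.88 times the parental value. In OVSAHO the parental libraries stood at 4.03, 4.35 and 4.70 and the resistant libraries at 5.81, 5.97 and 5.90, a difference of 1.53. In EFO-21 values of 6.34, 6.36 and 6.26 stood against 7.50, 7.19 and 7.47, a difference of 1.07. The groups did not overlap in any line, and FN1 was chosen because it was higher in the resistant cells of all 4.

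**Figure D1:**
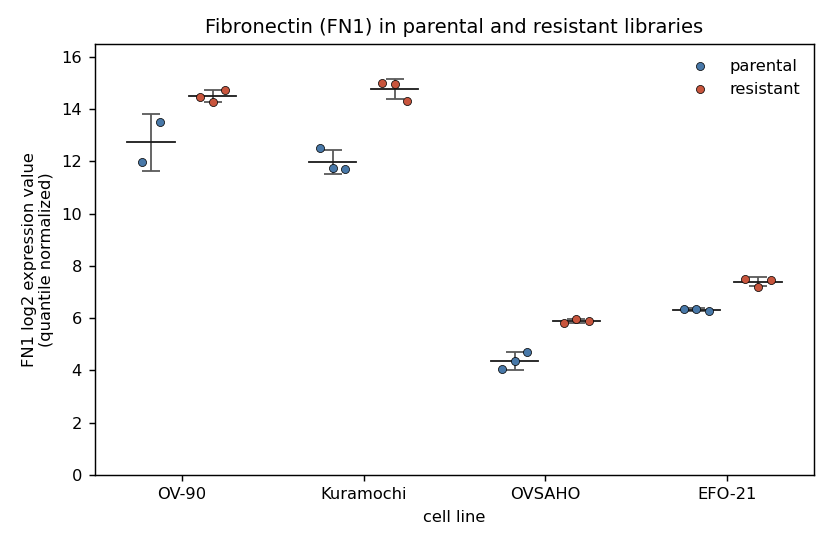
Log2 expression value of FN1 (vertical axis) in each library of the 4 lines (horizontal axis), parental in blue and resistant in red, with the group mean as a bar and the SD as whiskers. Resistant libraries lie above the parental libraries of their own line, and OVSAHO and EFO-21 stay below 8 in both states.

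The lines differed far more in their FN1 level than in the size of its change. Parental means ran from 4.36 in OVSAHO to 12.73 in OV-90, a span of 8.37. In the order of the 8 group means, resistant Kuramochi (14.77) and resistant OV-90 (14.51) came first and their libraries overlapped. Parental OV-90 (12.73) and parental Kuramochi (11.99) followed and overlapped too. Then came resistant EFO-21 (7.39), parental EFO-21 (6.32), resistant OVSAHO (5.89) and parental OVSAHO (4.36), none of which overlapped with its neighbours. Resistant OVSAHO and EFO-21 cells therefore had less FN1 RNA than the parental cells of OV-90 and Kuramochi.

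The FN1 difference in OV-90 rested on 2 parental libraries that stood apart from each other. Over all genes those libraries correlated at r = 0.952, the lowest of any pair within a group, and 2798 genes differed more than 2-fold between them, against 1195 to 2028 between the most distant pair of each other group. Without the lower parental library the FN1 difference was 1.01 and without the higher one 2.55. The OV-90 change also followed transcript composition, read over the 10202 genes above the median of gene means with known GC content and length. Its median was 0.43 in the quintile of genes with the lowest GC content and -0.28 in that with the highest, and -0.44 in the quintile with the shortest transcripts and 0.57 in that with the longest. FN1 has the longest transcript of the measured members, 9171 bases at 42.2% GC. With a smooth trend in GC and length subtracted from each library, a step chosen after the data were seen, the FN1 difference was 1.06 in OV-90, 2.84 in Kuramochi, 1.31 in OVSAHO and 1.03 in EFO-21.

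**Figure D2:**
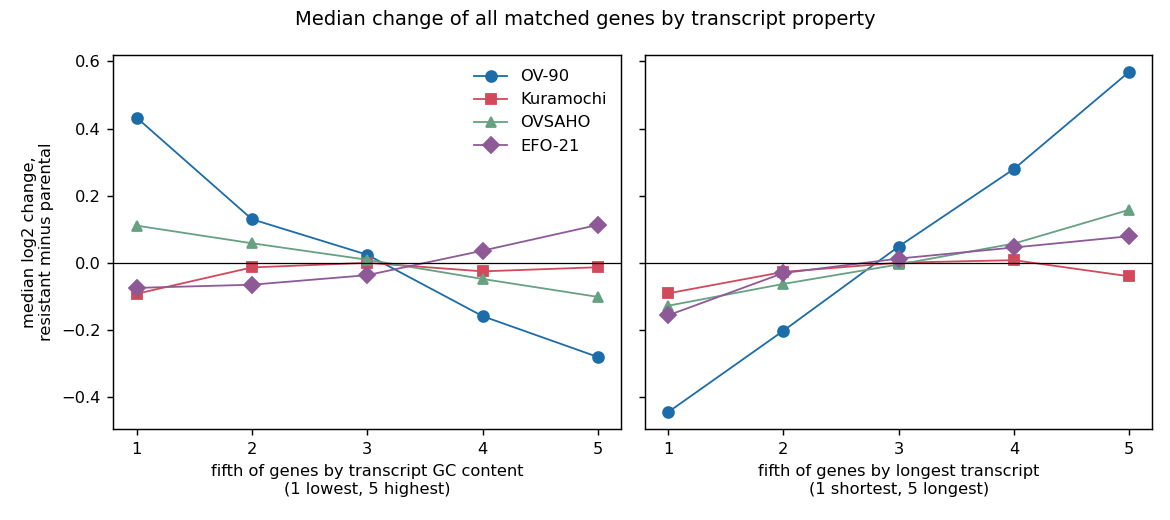
Median log2 change, resistant minus parental (vertical axis), by quintile of GC content (left) and of longest transcript (right), one line per cell line. The genes are the 10202 with a known transcript that lie above the median of gene means. The OV-90 line runs from 0.43 to -0.28 with GC and from -0.44 to 0.57 with length, and the other lines stay within 0.2 of 0.

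The integrins did not rise together with FN1. Over the 8 integrin genes and 4 lines, 7 of 32 comparisons passed the threshold, 5 higher and 2 lower. In OV-90 1 integrin was higher and 1 lower, where 16.1% of all genes were called (9.5% higher, 6.56% lower). In Kuramochi 2 were higher and 0 lower, where 22.5% of all genes were called (11.8% higher, 10.6% lower). In OVSAHO 2 were higher and 1 lower, where 7.76% of all genes were called (3.93% higher, 3.83% lower). In EFO-21 none was called by limma, where 14.3% of all genes were (7.11% higher, 7.15% lower), although 3 of the 8 had an adjusted p under 0.05 with a smaller fold, as many as had an unadjusted p under 0.05. The median log2 change of the 8 was 0.24, 0.46, 0.42 and 0.08 in OV-90, Kuramochi, OVSAHO and EFO-21, against -0.06, -0.02, 0.00 and 0.01 over all genes.

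ITGAV was the integrin that passed the threshold upward in the most lines, OV-90 and OVSAHO. It encodes alphaV (NCBI Gene ID 3685, chr2:187454737-187545628), the chain that pairs with beta1, beta3, beta5, beta6 or beta8 to bind RGD. In OV-90 its parental libraries stood at 4.83 and 6.15 and its resistant libraries at 7.70, 7.58 and 7.89, a rise of 2.23 ± 0.41 (SE, adjusted p = 0.0235 by limma), or 4.70-fold. In OVSAHO the values were 6.28, 6.46 and 6.67 against 7.38, 7.58 and 7.57, a rise of 1.04 ± 0.12 (adjusted p = 0.00186), or 2.05-fold. In EFO-21 they were 9.66, 9.40 and 9.60 against 10.54, 10.21 and 10.33, a difference of 0.81 ± 0.10 (adjusted p = 0.00155), under 2-fold. Resistant and parental libraries did not overlap in any of these 3 lines. In Kuramochi they did: the parental values were 10.71, 9.28 and 9.13 and the resistant values 9.38, 9.57 and 8.71, a difference of -0.49 ± 0.46 (adjusted p = 0.422) that was 0.02 without the parental library at 10.71. ITGAV has the lowest GC content of the 10 genes, 33.5%, and with the trend subtracted its change was 1.44 in OV-90 (adjusted p = 0.0177) and 0.78 in OVSAHO, which is under 2-fold. In OV-90 the change was 1.57 without the lower and 2.90 without the higher parental library and stayed past the threshold, but the adjusted p was 0.0778 to 0.0966 without any 1 resistant library. In OVSAHO it was 0.94 without the parental library at 6.28.

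ITGA5 encodes alpha5 (NCBI Gene ID 3678, chr12:54789045-54813050), which with beta1 forms the classical fibronectin receptor that binds the RGD and synergy sites together. In OVSAHO it rose 2.65-fold, from 3.44, 3.53 and 3.64 to 4.96, 4.90 and 4.98 (1.41 ± 0.13, adjusted p = 0.00102). In Kuramochi values of 7.26, 7.16 and 7.25 stood against 8.29, 8.26 and 8.10, a 1.99-fold difference (0.996 ± 0.08, adjusted p = 0.000183) just short of the 2-fold limit, which it passed, at 1.01 to 1.05, without the parental library at 7.26 or 7.25 or the resistant library at 8.10. The groups were apart in both lines. In EFO-21 the sign was the other way, with 9.34, 9.42 and 9.41 in parental and 8.71, 8.66 and 8.68 in resistant libraries (-0.71 ± 0.03, adjusted p = 4.86e-05), which is 1.64 times lower and under the fold limit. In OV-90 the parental values of 6.75 and 7.04 and the resistant values of 7.06, 6.92 and 7.02 overlapped (0.11 ± 0.13, adjusted p = 0.518). EFO-21 had the highest ITGA5 level of the 4 parental lines and OVSAHO the lowest, and this span of 5.85 in parental cells narrowed to 3.73 in resistant cells.

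ITGA3 changed in opposite directions in 2 lines. It encodes alpha3 (NCBI Gene ID 3675, chr17:48133332-48167845), a partner of beta1 known best as a laminin receptor. In OV-90 it fell from 6.98 and 7.03 to 5.94, 5.83 and 5.75, which is 2.24 times lower (-1.17 ± 0.12, adjusted p = 0.00969). In Kuramochi it rose from 9.47, 9.18 and 9.21 to 10.40, 10.43 and 10.26, which is 2.11 times higher (1.08 ± 0.09, adjusted p = 0.000268). The remaining lines showed differences under 2-fold with no overlap. OVSAHO stood at 7.07, 7.08 and 7.06 against 6.80, 6.83 and 6.78 (-0.27 ± 0.05, adjusted p = 0.00797), and EFO-21 at 10.69, 10.60 and 10.77 against 11.02, 10.93 and 11.01 (0.30 ± 0.05, adjusted p = 0.0053). ITGA3 has the highest GC content of the 10 genes, 61.3%, and its change in OV-90 was -1.31 with the trend subtracted (adjusted p = 0.00371). Without any 1 resistant OV-90 library the adjusted p was 0.0575 to 0.0629.

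ITGA4 encodes alpha4 (NCBI Gene ID 3676, chr2:182321929-182403667), the LDV-binding chain typical of leukocytes. Kuramochi was the line that held it above the foot of the scale, taken as the lowest 10% of genes of a library, in all of its libraries, at 4.12, 3.59 and 4.02 in parental and 4.50, 4.72 and 4.44 in resistant cells (0.64 ± 0.21, adjusted p = 0.048, 1.56-fold). In all 6 EFO-21 libraries it was at the foot, with values from 0.26 to 1.03. The highest value in OV-90 was 2.77 and in OVSAHO 2.37, and the difference between states was -0.69 ± 0.40 (adjusted p = 0.227) and -0.06 ± 0.41 (adjusted p = 0.932). Without the parental OV-90 library at 1.62 the OV-90 difference was -1.27 (adjusted p = 0.026). With the GC and length trend subtracted it was -1.38 (adjusted p = 0.0987 by limma). Values so near the foot of the scale carry little information on a change.

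ITGB1 encodes beta1 (NCBI Gene ID 3688, chr10:33176201-33294720), the partner of alpha3, alpha4, alpha5 and alpha8 and the most widely expressed beta chain. It was not called in any line, although its OV-90 difference depended on the fit. In OV-90 the libraries did not overlap, with 9.01 and 10.53 in parental and 11.36, 11.23 and 11.45 in resistant cells, but the difference of 1.58 ± 0.46 had an adjusted p of 0.0527. That difference was 0.82 without the lower parental library and 2.34 without the higher, where it was called (adjusted p = 0.00287), and 0.97 with the trend subtracted (adjusted p = 0.0669). It was also called with all 23 libraries in one fit (adjusted p = 0.000103) and with only the genes above the 25th percentile of means (adjusted p = 0.0305). In Kuramochi the values of 11.08, 10.62 and 10.54 against 11.06, 11.21 and 10.79 differed by 0.27 ± 0.17 (adjusted p = 0.234). OVSAHO (9.51, 9.58 and 9.83 against 9.78, 9.89 and 9.96) differed by 0.24 ± 0.09 (adjusted p = 0.10) and EFO-21 (10.68, 10.56 and 10.60 against 10.67, 10.62 and 10.74) by 0.06 ± 0.05 (adjusted p = 0.286). Libraries of the 2 states overlapped in each of these 3 lines.

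ITGB3 rose in Kuramochi. It encodes beta3 (NCBI Gene ID 3690, chr17:45331193-45391109), which pairs with alphaV to form a receptor for vitronectin and fibronectin. The Kuramochi libraries went from 6.31, 6.04 and 5.78 to 7.77, 7.85 and 7.47, a 3.15-fold rise (1.65 ± 0.17, adjusted p = 0.000527). In EFO-21, where its level was highest, the values of 11.13, 11.10 and 11.08 against 11.13, 10.92 and 10.96 differed by -0.10 ± 0.06 (adjusted p = 0.218). In OVSAHO they were 2.43, 3.41 and 2.09 against 3.26, 3.56 and 3.55 (0.81 ± 0.36, adjusted p = 0.138), a difference that was 1.20 without the parental library at 3.41 (adjusted p = 0.0193). OV-90 stood at 3.02 and 1.94 against 2.96, 2.84 and 2.75 (0.37 ± 0.37, adjusted p = 0.450). Outside Kuramochi the 2 states overlapped.

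ITGB6 was lower in resistant OVSAHO. It encodes beta6 (NCBI Gene ID 3694, chr2:160956178-161056824), an epithelial chain that pairs with alphaV alone and whose receptor also releases active TGF-beta from its latent complex. In OVSAHO it fell from 3.47, 3.17 and 3.90 to 0.99, 0.77 and 0.79, a difference of -2.66 ± 0.23 (adjusted p = 0.000791). All 3 resistant values lay at the foot of the scale, so no fold is given. In Kuramochi all 6 libraries lay there too, from 0.57 to 1.66. OV-90 had the highest level, 5.30 and 6.26 against 6.26, 6.08 and 6.36 (0.45 ± 0.32, adjusted p = 0.298), and EFO-21 stood at 2.49, 2.75 and 1.98 against 2.53, 2.05 and 2.79 (0.06 ± 0.29, adjusted p = 0.889). Both of these lines had overlapping states.

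ITGB8 encodes beta8 (NCBI Gene ID 3696, chr7:20370325-20455377), the other alphaV partner known for releasing TGF-beta, and it was not called in any line. OVSAHO was the line in which its states were apart, with 5.47, 5.85 and 6.02 in parental and 6.27, 6.39 and 6.47 in resistant cells, a 1.51-fold difference (0.60 ± 0.16, adjusted p = 0.0312). Kuramochi had 7.50, 6.49 and 6.44 against 6.87, 7.13 and 6.43 (0.00 ± 0.33, adjusted p = 0.993), or 0.34 without the parental library at 7.50. OV-90 had 4.83 and 4.41 against 4.21, 4.32 and 4.64 (-0.23 ± 0.25, adjusted p = 0.480), and EFO-21 had 8.10, 8.0 and 8.13 against 8.42, 8.12 and 8.16 (0.16 ± 0.09, adjusted p = 0.195). With the GC and length trend subtracted the OV-90 difference in ITGB8 was -1.02 (adjusted p = 0.0609 by limma), still not called. Among alphaV and its measured partners, resistant OVSAHO thus had more ITGAV, less ITGB6 and no called change in ITGB1, ITGB3, ITGB5 (0.27 ± 0.03, adjusted p = 0.00197, under 2-fold) or ITGB8.

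**Figure D3:**
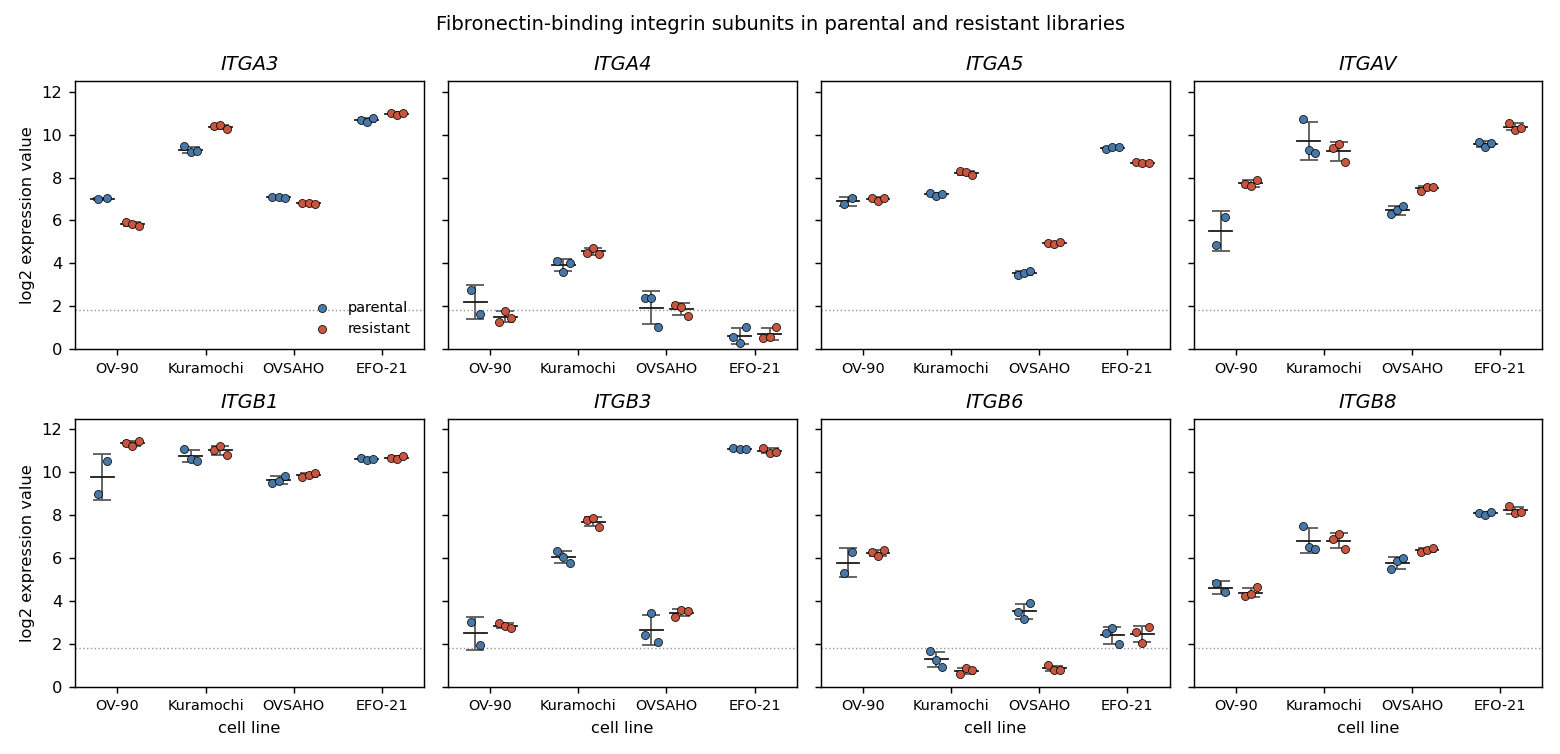
Log2 expression value (vertical axis) of each of the 8 integrin genes in each library of the 4 lines (horizontal axis), parental in blue and resistant in red, with group means as bars, the SD as whiskers and, dotted, the level below which the lowest 10% of genes lie. ITGB3 differs most between lines, and ITGB6 in resistant OVSAHO drops below the dotted level.

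By limma's F-test of resistance by line over all 23 libraries the size of the change differed between lines for 6 of the 8 integrins, no larger a share than the 75.1% of all genes that passed it, so the count is not particular to the integrins. These were ITGA3, ITGA5, ITGAV, ITGB1, ITGB3 and ITGB6, and the test was not passed by ITGA4 (adjusted p = 0.159) or ITGB8 (adjusted p = 0.162). Against the mean of the other 3 lines, the ITGA5 change was 1.28 ± 0.09 higher in OVSAHO (adjusted p = 7.83e-09) and differed by -1.55 ± 0.09 in EFO-21 (adjusted p = 2.95e-10). For ITGA3 the line furthest from the others was OV-90, by -1.53 ± 0.09 (adjusted p = 5.83e-10), with Kuramochi at 1.46 ± 0.08 in the other direction (adjusted p = 5.86e-11). The ITGAV change was 1.78 ± 0.43 higher in OV-90 (adjusted p = 0.00216) and differed by -1.84 ± 0.40 in Kuramochi (adjusted p = 0.000692). For ITGB1 the line that differed was OV-90, by 1.39 ± 0.30 (adjusted p = 0.00102). In limma's fit of OV-90 alone ITGB1 was not called (1.58, adjusted p = 0.0527). The OV-90 values of ITGAV and ITGB1 rest on 2 parental libraries that stood apart. For ITGB3 the lines were Kuramochi, by 1.29 ± 0.31 (adjusted p = 0.00193), and EFO-21, by -1.05 ± 0.31 (adjusted p = 0.012). For ITGB6 the line was OVSAHO, by -2.65 ± 0.33 (adjusted p = 7.85e-06), beside 1.504 ± 0.36 in OV-90 (adjusted p = 0.00202) and 0.97 ± 0.33 in EFO-21 (adjusted p = 0.0247). Such a value also takes in the changes of the lines in the mean. The own ITGB6 change was 0.45 in OV-90 and 0.06 in EFO-21, and the own ITGB3 change in EFO-21 was -0.10, none of them called.

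**Figure D4:**
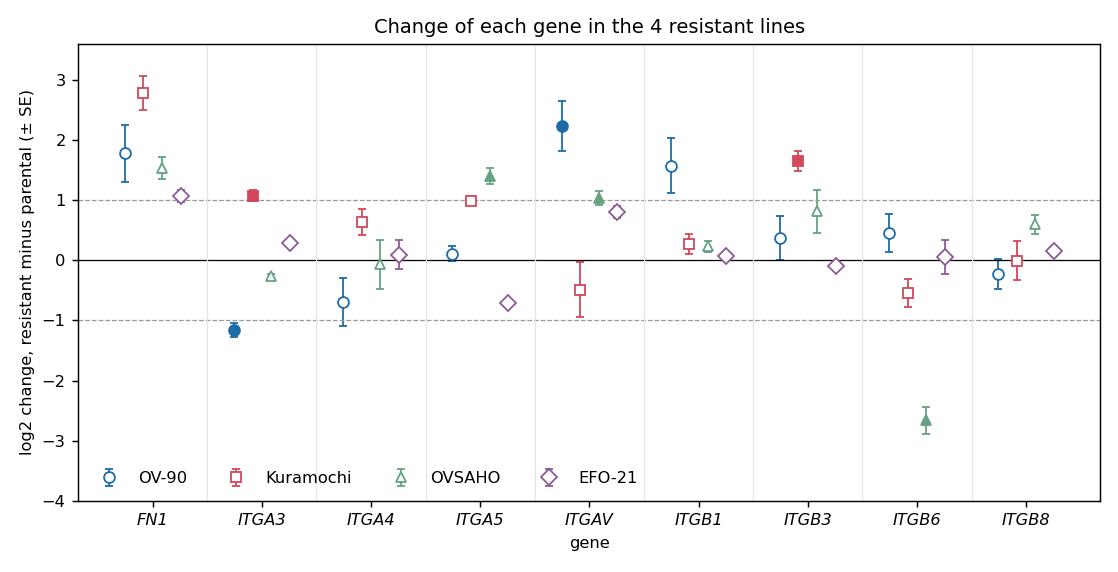
Log2 change, resistant minus parental, with its SE (vertical axis) for each of the 9 measured genes (horizontal axis) in each line; filled symbols mark integrins called changed, open symbols the rest, and FN1 is open because it was not tested. FN1 is above 1 in all 4 lines, while ITGA3 and ITGA5 lie on both sides of 0.

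Before resistance the lines already differed in the RNA of fibronectin receptor chains. All 8 integrins differed among the 4 parental lines by limma's F-test, which 93.5% of all genes passed. Of 48 pairwise comparisons 37 were called, where 37.6% to 50.2% of all genes were called per pair. Those 37 include pairs of ITGA4 with EFO-21 and of ITGB6 with Kuramochi, where all parental values lay at the foot of the scale. ITGB3 spanned the widest range, from 2.48 ± 0.76 in OV-90 (SD, n = 2) to 11.10 ± 0.02 in EFO-21 (SD, n = 3), and OV-90 and OVSAHO were not called different for it. ITGA5 ranged from 3.54 ± 0.10 in OVSAHO to 9.39 ± 0.04 in EFO-21. ITGAV ranged from 5.49 ± 0.94 in OV-90 to 9.71 ± 0.88 in Kuramochi, with EFO-21 not called different from Kuramochi. ITGB6 went from 1.28 ± 0.36 in Kuramochi to 5.78 ± 0.68 in OV-90, and all 6 pairs of lines were called different. ITGB1 was the most even, from 9.64 ± 0.17 to 10.75 ± 0.29, and only 1 of its 6 pairs was called, Kuramochi against OVSAHO. Among the parental lines, EFO-21 thus had the highest ITGA5 and ITGB3, with ITGAV near that of Kuramochi and an FN1 mean above only that of OVSAHO. OV-90 had the highest mean FN1, overlapping with Kuramochi, and the lowest mean ITGAV and ITGB3. For these last 2 genes OVSAHO was not called different from OV-90.

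The genes whose level followed FN1 over the 23 libraries were sought among 10828 genes above the median of gene means, as a description across libraries that share lines and a normalization. The 5 with the highest Pearson r were CDKN2B (0.966), NCBI Gene ID 101927061 (0.961), CTBS (0.958), SH3D19 (0.957) and CAPN2 (0.957), an order set mainly by the gap between lines. With each line's mean subtracted they were KLF10 (0.986), RCN1P2 (0.985), RCN1 (0.983), ELOVL5 (0.971) and MAP4K4 (0.971). That step leaves the FN1 difference between states, for which FN1 was chosen, and this weighs on the second order. KLF10 is a transcription factor induced by TGF-beta. Its log2 change was 1.08 in OV-90 and 1.58 in Kuramochi, where it was called, and under 2-fold in OVSAHO (0.90) and EFO-21 (0.77). RCN1P2 is a pseudogene copy of RCN1, a calcium-binding protein of the endoplasmic reticulum, and reads of the 2 may be split between them, so both are uncertain. The integrins among the compared genes were far from the top of that list. Their r was 0.692 for ITGB3, 0.666 for ITGB1, 0.624 for ITGA5, 0.533 for ITGAV, 0.278 for ITGB8 and 0.227 for ITGA3. ITGA4 and ITGB6 lay below the median of gene means and were not ranked, with r of 0.0002 and -0.34 after the same step.

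Beyond the 9 genes, 115 genes of the fibronectin and integrin pathway were measured in 7 lists. Of them 28 (24.3%) were called in OV-90, 39 (33.9%) in Kuramochi, 15 (13%) in OVSAHO and 17 (14.8%) in EFO-21, to be read beside the shares of all genes above. In OV-90 the count was 14 with the GC and length trend subtracted, where 12.9% of all matched genes were called. It ranged from 3 to 39 when single libraries were left out, with 1.43% to 27.6% of all genes called. Up to 4 genes per list are named, those with calls of 1 direction in 2 lines or more. Of the 7 named genes called in OV-90, 6 lost the call without any 1 resistant library (adjusted p from 0.0528 to 0.113), and LOX did not.

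Among the 23 other ligands of these integrins, 4 were higher and 0 lower in OV-90, 9 and 5 in Kuramochi, 3 and 2 in OVSAHO, and 3 and 1 in EFO-21. THBS1, which encodes the matricellular thrombospondin-1, rose in 3 lines, by 1.63 ± 0.32 in OV-90 (adjusted p = 0.0254), 2.75 ± 0.24 in Kuramochi (adjusted p = 0.000284) and, in OVSAHO, 1.30 ± 0.13 (adjusted p = 0.00132), and differed by -0.10 in EFO-21. VTN, which encodes vitronectin, the serum ligand of alphaV beta3, rose in OV-90 by 1.24 ± 0.12 (adjusted p = 0.00956), in Kuramochi by 2.30 ± 0.25 (adjusted p = 0.000619) and in EFO-21 by 2.41 ± 0.16 (adjusted p = 0.000153), from the foot of the scale in the last 2. VCAM1, the cell surface ligand of alpha4 beta1, rose in Kuramochi by 2.13 ± 0.21 and, from the foot of the scale, in EFO-21 by 1.63 ± 0.22. LAMB3, a chain of the epithelial laminin-332 that alpha3 beta1 binds, fell in Kuramochi (-2.68 ± 0.16, adjusted p = 6.23e-05) and in OVSAHO (-2.69 ± 0.11, adjusted p = 7.54e-05).

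Of the 16 measured genes of fibronectin matrix assembly and turnover, 4 were higher and 1 lower in OV-90, 6 and 2 in Kuramochi, 3 and 1 in OVSAHO, and 0 and 2 in EFO-21. LOX, which crosslinks collagen and elastin, rose in the same 3 lines as THBS1, by 1.18 ± 0.09 in OV-90 (adjusted p = 0.0056), 3.57 ± 0.22 in Kuramochi (adjusted p = 7.5e-05) and 2.54 ± 0.09 in OVSAHO (adjusted p = 5.0e-05). In OV-90 the LOX change was 0.63 with the trend subtracted. PLAT, the tissue plasminogen activator, fell by 1.12 in OVSAHO (SE 0.19, and under 2-fold, at -0.97, without 1 resistant library) and by 1.87 in EFO-21 (SE 0.21). TGM2, a transglutaminase that crosslinks fibronectin and binds it beside integrins, fell by 1.62 in Kuramochi (SE 0.08) and by 1.32 in EFO-21 (SE 0.06), and differed the other way in OV-90 (2.07 ± 0.77, adjusted p = 0.0926) and OVSAHO (0.32 ± 0.06, adjusted p = 0.0102, under 2-fold).

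Among the integrin chains outside the fibronectin set, 2 of 12 alpha genes were higher and 0 lower in OV-90, 3 and 1 in Kuramochi, 1 and 0 in OVSAHO, and 1 and 3 in EFO-21. ITGA1, the alpha1 chain of a collagen receptor, rose in OV-90 (1.15 ± 0.25, adjusted p = 0.0300) and OVSAHO (2.26 ± 0.16, adjusted p = 0.000464) and fell in EFO-21 (-2.38 ± 0.11, adjusted p = 5.26e-05). Its OV-90 change was 0.31 with the trend subtracted. ITGAX, a leukocyte alpha chain, rose in Kuramochi from the foot of the scale (2.75 ± 0.18) and in EFO-21 (1.15 ± 0.10). Of the 4 other beta genes, 0 were higher and 2 lower in OV-90, 1 and 1 in Kuramochi, 0 and 1 in OVSAHO, and 0 and 1 in EFO-21. ITGB4, the beta4 chain of the hemidesmosome laminin receptor, fell in OV-90 (-1.55 ± 0.14, adjusted p = 0.00874) and OVSAHO (-1.71 ± 0.07, adjusted p = 7.57e-05).

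Inside the cell, talins, kindlins and the proteins around them join integrin tails to actin. Of the 30 genes of this adhesion complex, 5 were higher and 1 lower in OV-90, 2 and 2 in Kuramochi, 0 and 2 in OVSAHO, and 2 and 2 in EFO-21. With no fold limit 14 of the 30 had an adjusted p under 0.05 in OV-90, 15 in Kuramochi, 16 in OVSAHO and 23 in EFO-21. The share of all genes without a fold limit is not given here, so these counts cannot be set beside the 2-fold shares. With the trend subtracted the OV-90 counts were 0 and 1. TNS4, a tensin that binds the beta1 tail, fell to the foot of the scale in OVSAHO (-2.01 ± 0.15) and fell in EFO-21 (-1.73 ± 0.18). PTK2B, a kinase related to focal adhesion kinase, fell in OV-90 (-1.07 ± 0.20) and OVSAHO (-1.34 ± 0.17). LIMS1 is an adaptor of integrin-linked kinase with near-identical gene copies, which makes its value uncertain. It fell in Kuramochi (-1.07 ± 0.23) and EFO-21 (-1.13 ± 0.04) and rose in OV-90 (1.18 ± 0.17, or 0.70 with the trend subtracted). Its Kuramochi call was lost in 2 of 6 fits without single libraries, 1 without a parental library (-0.82) and 1 without a resistant library.

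Of the 13 genes that control integrin activation or organize integrins at the membrane, 2 were higher and 1 lower in OV-90, 2 and 1 in Kuramochi, 0 and 0 in OVSAHO by limma (8 with an unadjusted p under 0.05), and 0 and 1 in EFO-21. Of the 17 genes of latent TGF-beta and its signalling, 4 were higher and 2 lower in OV-90, 3 and 1 in Kuramochi, 1 and 1 in OVSAHO, and 0 and 1 in EFO-21. LRRC32, which holds latent TGF-beta on the cell surface, fell in OVSAHO (-1.30 ± 0.14) and EFO-21 (-1.12 ± 0.14).

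**Figure D5:**
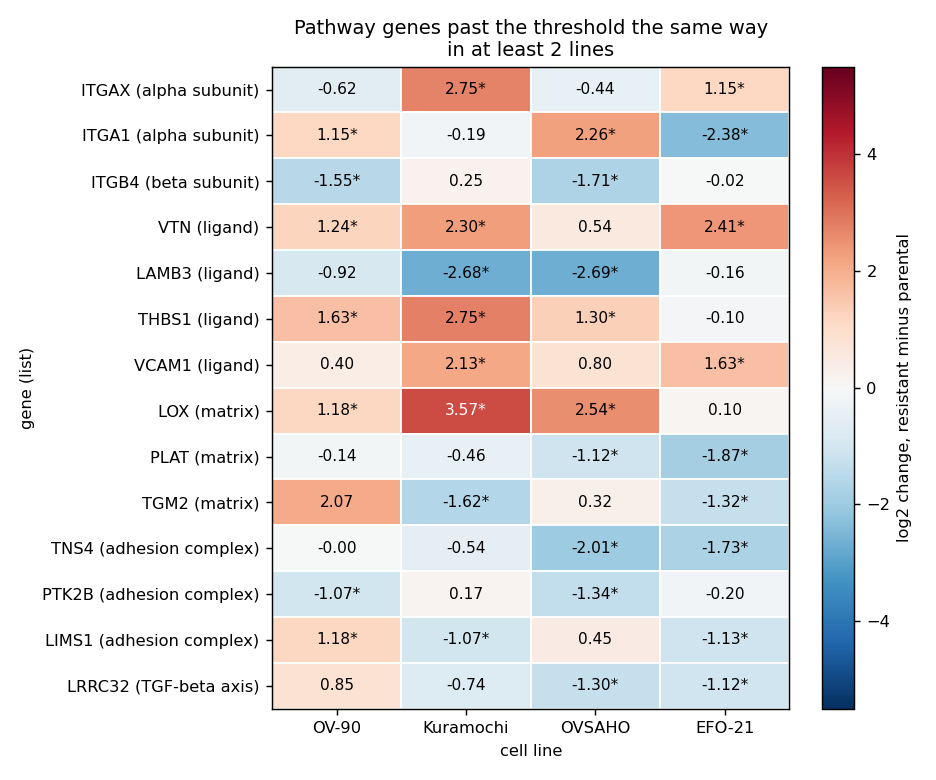
Log2 change, resistant minus parental, of the 14 named pathway genes (rows, with their list) in the 4 lines (columns), printed in each cell and coloured from blue (lower) to red (higher), with a star where the gene was called changed. THBS1 and LOX are starred as higher in OV-90, Kuramochi and OVSAHO but not in EFO-21.

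Markers of cell type were read beside these results, since FN1 and several integrins differ between epithelial and mesenchymal cells. Of 10 epithelial and ovarian carcinoma markers, 0 to 3 lay in the lowest 10% of genes in any parental library. Resistant cells had 8 of the 10 lower in Kuramochi and 5 lower in OVSAHO, with median changes of -2.29 and -1.24, and 0 lower in OV-90 and EFO-21, with 1 higher in EFO-21 and medians of -0.41 and -0.46, although 3 and 10 of them had an unadjusted p under 0.05. The mean level over the list went from 8.45 to 8.52 in parental down to 6.0 to 6.07 in resistant Kuramochi libraries and from 9.06 to 9.13 down to 7.32 to 7.43 in OVSAHO. It was 7.66 to 7.92 against 7.42 to 7.53 in OV-90 and 8.61 to 8.70 against 8.43 to 8.47 in EFO-21. Of all genes, 6.56% were called lower in OV-90, 10.6% in Kuramochi, 3.83% in OVSAHO and 7.15% in EFO-21. The shares called higher were 9.5%, 11.8%, 3.93% and 7.11% in the same order. The counts of markers called are to be read beside these shares. The share of all genes with an unadjusted p under 0.05 is not given here. Of 8 fibroblast markers, 2 were higher and 4 lower in Kuramochi, 2 and 3 in OVSAHO, 0 and 0 in OV-90 by limma (2 with an unadjusted p under 0.05), and 1 and 0 in EFO-21, and their mean level over the list ran from 2.33 in EFO-21 to 6.28 in OV-90. Of 5 leukocyte markers 0, 1, 3 and 2 were lower in OV-90, Kuramochi, OVSAHO and EFO-21. Of 4 endothelial markers 1 was lower in OV-90, 1 higher and 2 lower in Kuramochi, 1 higher in OVSAHO and 1 lower in EFO-21. The part of such shifts in the FN1 and integrin values was not tested, and in RNA from whole cultures fewer cells of a type and less RNA per cell cannot be told apart.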

How the data were processed

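Log2 expression values of 21658 genes, identified by NCBI Gene ID, were deposited for 23 libraries of 4 cell lines. The authors aligned stranded mRNA reads to GRCh37 (hg19), dropped exons with few reads, summarized exon and junction reads of a gene with a robust linear model and quantile normalized each library, which removes shifts shared by most genes. Read counts were not used here, so the depth is unknown and no counting interval is given. A gene's value is not scaled per length and was compared only between libraries.

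Symbols were matched through RefSeq for 20745 genes (95.8%). Each resistant line was compared with its own parental line by limma 3.58.1 in R 4.3.3 (empirical Bayes with a mean-variance trend, two-sided, Benjamini-Hochberg adjustment over all genes). A change was called at an adjusted p under 0.05 and at least 2-fold. With 2 or 3 libraries a group, an exact permutation test cannot go below 0.1. Differences between lines were tested with an F-test over 8 group means, and parental lines in a fit of the 11 parental libraries. The code was tested on simulated data. Transcript GC and length came from the GENCODE annotation of GRCh37 for 19596 genes (90.5%). The trend was fitted with splines to each library's deviation from the gene means, over the 10202 of these genes above the median of gene means. It was then subtracted from all 19596, so for lower genes such as ITGA4 and ITGB6 it was carried over from higher ones. The 9 measured members are always named. From the pathway lists, genes called in 1 direction in at least 2 lines were named, up to 4 per list by mean change, except 2 that are not reported here, with the 5 genes most correlated with FN1 under each of 2 definitions. The members and lists were chosen with earlier results of these data known.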

Additional observations from a re-analysis of the deposited data

Results flagged for a closer look

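The resistance-associated change differed between the 4 cell lines for 6 of the 8 measured integrins by limma's F-test of resistance by line over all 23 libraries, no larger a share than the 75.1% of all genes that passed the same test. The adjusted p was 2.98e-11 for ITGA3, whose log2 change was -1.17 in OV-90 and 1.08 in Kuramochi. It was 4.83e-11 for ITGA5 (1.41 in OVSAHO and -0.71 in EFO-21) and 0.00109 for ITGAV (2.23 in OV-90 and -0.49 in Kuramochi). For ITGB1 it was 0.00415 (1.58 in OV-90 and 0.06 in EFO-21), for ITGB3 0.00321 (1.65 in Kuramochi and -0.10 in EFO-21) and for ITGB6 1.15e-05 (-2.66 in OVSAHO and 0.45 in OV-90). OV-90 and its 2 unlike parental libraries enter each of these tests, and over the fits without single libraries 6 or 7 of the 8 integrins passed. With the GC and length trend subtracted 8 passed. The share of all genes that passed in these further fits is not given here, so their counts cannot be set beside the 75.1%.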

How the results depend on the processing

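In OV-90 the integrin count was 2, and 0 to 4 without single libraries. It was 4 without the higher parental library, where 27.6% of all genes were called. It was 0 without any 1 resistant library, fits in which 1.43% to 1.96% of all genes were called. The other counts without single libraries were 2 to 3 in Kuramochi, 2 to 4 in OVSAHO and 0 in EFO-21. Of all genes, 21% to 22.6% were called in those Kuramochi fits, 6.85% to 7.79% in OVSAHO and 13.2% to 13.6% in EFO-21. A 1.5-fold limit gave 2 in OV-90, 4 in Kuramochi, 4 in OVSAHO and 2 in EFO-21. No fold limit gave 2 in OV-90, 4 in Kuramochi, 5 in OVSAHO and 3 in EFO-21. The shares of all genes at these 2 looser limits are not given here, so the counts describe the limit and not the integrins. The FN1 difference in OV-90 was 1.01 to 2.55 without single libraries and 1.06 with the GC and length trend subtracted, and in Kuramochi 3.22 as a difference of medians. Pathway genes called in OV-90 were 14 with the trend subtracted, 16 without the lower parental library, and 3 to 39 over all single libraries left out. Sign changes were seen for integrins that were not called. With the trend subtracted these were ITGA5 (-0.10), ITGB3 (-0.026) and ITGB6 (-0.039) in OV-90 and ITGB8 (0.11) in Kuramochi. Without single libraries OV-90 values ran from -0.037 to 0.26 for ITGA5, -0.17 to 0.91 for ITGB3 and -0.029 to 0.94 for ITGB6. In Kuramochi ITGAV ran from -0.77 to 0.019 and ITGB8 from -0.19 to 0.34. ITGA4 ran from -0.51 to 0.16 in OVSAHO and from -0.083 to 0.29 in EFO-21, and ITGB6 from -0.16 to 0.26 in EFO-21. The cause was not tested. Recentring each library on its median, dropping the mean-variance trend, fitting all libraries together and dropping low genes left each count within 1.5 times. No paired analysis was possible because the columns of the table carry library numbers and not the replicate numbers of the labels. The depth is unknown, so its limit on low genes such as ITGA4 and ITGB6 cannot be given.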

Other observations

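With each group's own mean subtracted, FN1 still varied together with some integrins among the 23 libraries. Pearson's r of these deviations was 0.94 with ITGB1, 0.91 with ITGAV and 0.84 with ITGA5, and -0.27 with ITGB3 and -0.47 with ITGA4. In the parental OV-90 libraries FN1 (11.96 and 13.50), ITGAV (4.83 and 6.15) and ITGB1 (9.01 and 10.53) were all lower in the same library. Those libraries, the lower minus the higher in FN1, were also compared over the 10202 matched genes above the median of gene means. The median difference was -0.30 in the quintile of lowest GC and 0.20 in that of highest GC. It was 0.25 for the shortest and -0.37 for the longest transcripts. The points share their libraries and normalization, and the part of the trend in these correlations was not tested.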
